A study of Mus musculus with 6 samples.

Results

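The expression of 10 genes of the common gamma-chain cytokine receptors and their JAK-STAT route was examined in osteoclasts (OCs). They are the shared chain Il2rg, the receptor chains Il4ra, Il21r, Il7r and Il9r, the kinases Jak1 and Jak3, the transcription factors Stat3 and Stat6, and the feedback inhibitor Socs3. The genes were picked by name, with no threshold on their values but with earlier results of these data known. All 10 are among the 21492 genes of the deposited table. Of these, 9 had at least 1 CPM in 3 or more libraries and were tested with 14047 genes in all. Only Il9r was below this limit.

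OCs, the multinucleated cells of bone resorption, had been induced from bone marrow macrophages of WT C57BL/6J mice and of Dcir-/- mice, which lack the C-type lectin receptor DCIR and had been backcrossed to C57BL/6J. All cultures received 20 ng/ml of M-CSF, which macrophages need to survive, and RANKL, the signal for OC differentiation, at 100 ng/ml. RNA was sequenced from 3 WT libraries, numbered 3, 82 and 94, and 3 Dcir-/- libraries, numbered 21, 22 and 83. The labels place the cells at day 4 of culture with 2 days of RANKL, while the study's methods give 4 days of RANKL. The mice were young adults matched for age and sex. Since WT mice came from a commercial breeder and were only later housed beside the mutants, genotype and origin of the mice cannot be told apart. Whether each library was made from its own mouse or culture is not given, so p-values reflect the spread among these libraries alone, and this spread may be technical.

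Each cytokine of this family binds a receptor of its own chain and the common gamma chain. The private chain carries the kinase JAK1 and the gamma chain carries JAK3, and once brought together these kinases phosphorylate STAT proteins, which move to the nucleus. IL-4 acts mainly through STAT6, IL-21 and IL-9 largely through STAT3, and IL-7 through STAT5. SOCS3, which STAT3 induces, binds to receptors and JAKs and dampens the signal. In bone, IL-4 is known to restrain OC formation from macrophages, and the gamma chain is otherwise best known for its need in lymphocyte development.

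Values look like counts that the authors had adjusted to a common library size, which no source used here states, and are given as CPM, the share of the mean library total scaled to 1e+06. Column totals were 33035020.2 to 34068308.6 in the Dcir-/- libraries and 33155299.7 to 33931297.4 in the WT libraries, and 95.8% to 99.8% of the values in a library were not whole, so the depth of a single library is unknown. Clec4a2, the gene of DCIR, was at 0.496 to 1.15 CPM in the Dcir-/- libraries and at 239 to 289 CPM in the WT libraries, so every library matched its genotype label. In a principal component analysis WT library 3 stood apart on the first component (53.5% of the variance) and WT library 94 did so on the next (27.5%). On the first component Dcir-/- library 21 was at the other end, at -22.4 against 35.3 for WT library 3. The genotypes did not overlap on it, with WT library 94 at -4.13 and Dcir-/- library 22 at -7.50 the nearest pair. All 10 OC markers, such as Ctsk and Acp5, were present in every library, at a summed level of 17387 to 19706 CPM in WT and 17800 to 23301 CPM in Dcir-/- OCs. The cultures also held RNA of macrophage and monocyte markers, at 3715 to 4768 CPM in WT and 3667 to 3974 CPM in Dcir-/- OCs. In such bulk RNA, fewer cells of a type and less RNA per cell cannot be told apart.

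Fold changes are differences of log2(CPM + 1), Dcir-/- minus WT, from limma, which understate the change of genes near 1 CPM, and adjusted p-values are Benjamini-Hochberg values over all 14047 genes. Limma called none of the 9 genes at an adjusted p under 0.05 (0 of 9), while 0.441% of all tested genes passed, 0.149% higher and 0.292% lower. At an unadjusted p under 0.05, limma placed 3 of the 9 lower in Dcir-/- OCs and 0 higher, against 6.68% lower and 5.82% higher of all tested genes (12.5% in either direction). These were Il2rg, Il4ra and Il21r. In the same 3 genes the libraries of both genotypes did not overlap, with every Dcir-/- library below every WT library, as was so for 9.34% of all tested genes (19.8% did not overlap in either direction). All 9 had a lower mean log2 value in Dcir-/- OCs, compared with 46.1% of all tested genes, and their median was -0.36, compared with 0.01 over all tested genes. Because the list was chosen with earlier results known, these shares describe the 9 genes and are no separate support for a difference.

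**Figure D1:**
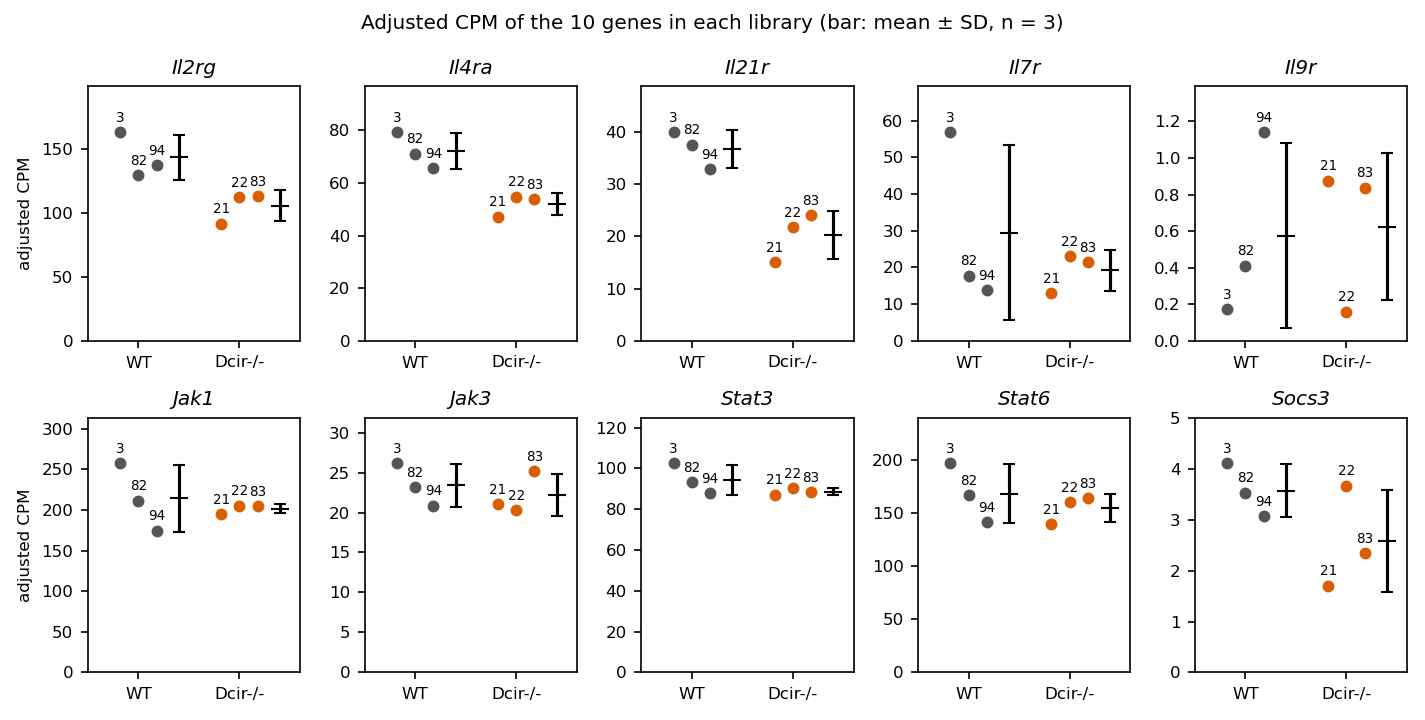
Level of each of the 10 genes in every library, in adjusted CPM on a linear axis from 0, for WT (grey, libraries 3, 82 and 94) and Dcir-/- (orange, libraries 21, 22 and 83). Bars give the mean and SD of 3 libraries. The points of both genotypes are separate for Il2rg, Il4ra and Il21r and overlap for the other 7 genes.

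The stretches just before the start of these 3 genes are shown because they were the genes in which the genotypes did not overlap. Sequences are from RefSeq on build GRCm38.p6, 5′ to 3′ along the gene's own strand, and stop before the first base that GENCODE M21 annotates as the gene. The Il2rg stretch is chrX:101268256-101268505 on the minus strand. The Il21r stretch is chr7:125603179-125603428 and the Il4ra stretch chr7:125552021-125552119, both on the plus strand. Capitals mark CCGGAA, a core to which ETS family factors can bind.
Il2rg: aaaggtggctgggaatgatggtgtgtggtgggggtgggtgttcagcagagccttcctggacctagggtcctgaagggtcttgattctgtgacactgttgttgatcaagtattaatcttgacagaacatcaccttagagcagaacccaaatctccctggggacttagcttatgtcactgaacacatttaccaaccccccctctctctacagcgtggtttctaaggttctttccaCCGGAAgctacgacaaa
Il21r: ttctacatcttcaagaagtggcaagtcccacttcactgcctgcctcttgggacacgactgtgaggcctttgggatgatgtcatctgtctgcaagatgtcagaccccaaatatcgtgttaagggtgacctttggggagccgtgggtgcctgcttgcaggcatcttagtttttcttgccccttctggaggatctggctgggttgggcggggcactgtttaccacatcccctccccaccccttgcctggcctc
Il4ra: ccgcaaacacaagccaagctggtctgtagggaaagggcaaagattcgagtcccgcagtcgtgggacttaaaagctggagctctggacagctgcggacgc

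Both strands of the RefSeq windows, 250 bases before to 50 bases after each start, were searched for 3 motifs, and all 10 genes had a window. CCGGAA was in the windows of Il2rg and Stat6, and in 14.9% of all 32851 windows. TTCNNNGAA, the core of most STAT sites, was in the windows of Il7r and Socs3 and in 8.30% of all windows. TTCNNNNGAA, the wider spacing that STAT6 prefers, was in 6.95% of all windows and in 0 of the 10. The STAT cores of Il7r, at chr15:9530000-9530028, and of Socs3, at chr11:117969502-117969530, both on the minus strand, are given with 10 bases on each side and the core in capitals. Unlike the stretches above, both cores lie inside the genes as GENCODE M21 annotates them, which start at 9530176 and 117970047. They are shown because Socs3 is a textbook STAT3 target and because no other gene of the 10 had this core in its window.
Il7r: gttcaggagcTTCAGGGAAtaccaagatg
Socs3: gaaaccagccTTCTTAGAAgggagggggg

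These are matches of letters and not mapped binding sites.

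Il2rg encodes the common gamma chain and lies on the X chromosome (mm10 101264378 to 101268255, minus strand, 2387 exon bases). It was at 163, 129 and 137 CPM in WT libraries 3, 82 and 94 and at 91.6, 112 and 113 CPM in Dcir-/- libraries 21, 22 and 83. WT library 3 was the highest and Dcir-/- library 21 the lowest, and the nearest pair across genotypes, WT library 82 and Dcir-/- library 83, was still apart. The means were 143 ± 17.7 CPM in WT and 106 ± 12.2 CPM in Dcir-/- OCs (SD, n = 3 each), 26.2% lower in the latter. The log2 fold change was -0.43 (SE 0.12, 95% interval -0.70 to -0.17) with a limma adjusted p of 0.190. The predicted gene Gm20489 shares 728 exon bases on the same strand with Il2rg, 30.5% of its exon length, so reads on that stretch cannot be assigned to Il2rg alone.

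Il4ra, the private chain of the IL-4 receptor and part of the IL-13 receptor, lies on chromosome 7 (mm10 125552120 to 125579474, plus strand). It was at 79.4, 71.2 and 65.7 CPM in the WT libraries 3, 82 and 94 and at 47.2, 54.8 and 53.9 CPM in the Dcir-/- libraries 21, 22 and 83. All WT libraries were above all Dcir-/- libraries, with library 21 again the lowest. Means were 72.1 ± 6.90 CPM and 52.0 ± 4.14 CPM (SD, n = 3 each), 27.9% lower in Dcir-/- OCs. For Il4ra this gave a log2 fold change of -0.46 (SE 0.10, 95% interval -0.69 to -0.24) with a limma adjusted p of 0.122. An antisense gene, Gm44876, covers 571 of the exon bases of Il4ra (9.51%), and the strand setting of the counting is not given in the sources used here. Gm44876 itself had a log2 fold change of -0.24 (SE 0.16, limma adjusted p = 0.607), with overlapping genotypes.

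Il21r, the private chain of the IL-21 receptor, had the largest difference of the 9 genes. It was at 39.9, 37.5 and 32.8 CPM in the WT libraries and at 15.1, 21.7 and 24.0 CPM in the Dcir-/- libraries, in the order given above. The lowest WT library, 94, was above the highest Dcir-/- library, 83. Means were 36.7 ± 3.64 CPM and 20.3 ± 4.63 CPM (SD, n = 3 each), 44.9% lower in Dcir-/- OCs. The log2 fold change of Il21r was -0.85 (SE 0.17, 95% interval -1.23 to -0.47) with a limma adjusted p of 0.0954, at place 110 of all tested genes by p.

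Il21r (mm10 125603429 to 125633570, plus strand) lies on chromosome 7 just after Il4ra, on the same strand, with 23954 bases and 0 annotated genes between them. Both private chains whose genotypes did not overlap are thus neighbours. Within 200 kb of the pair, the 5 other tested genes had log2 fold changes from -0.24 to 0.12, and in each of them the genotypes overlapped. They include the antisense gene Gm44876, Nsmce1, a subunit of the SMC5/6 complex, at -0.21 (SE 0.13, limma adjusted p = 0.564), and Gtf3c1, a subunit of the RNA polymerase III factor TFIIIC, at 0.12 (SE 0.08, limma adjusted p = 0.612).

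Il7r, the private chain of the IL-7 receptor, was set apart by a single library. WT library 3 was at 56.9 CPM, while WT libraries 82 and 94 were at 17.8 and 13.8 CPM and Dcir-/- libraries 21, 22 and 83 at 12.9, 23.1 and 21.5 CPM. The other WT libraries lay within the range of the Dcir-/- libraries, of which 22 and 83 were above both. Without WT library 3 the log2 fold change turned from -0.36 (SE 0.46, 95% interval -1.41 to 0.69, limma adjusted p = 0.805) to 0.24. Il9r, the private chain of the IL-9 receptor, was the lowest of the 10 genes, at 0.174, 0.410 and 1.14 CPM in the WT libraries and at 0.876, 0.160 and 0.838 CPM in the Dcir-/- libraries. The genotypes overlapped. With no filter on low values Il9r had a log2 fold change of 0.06 (SE 0.24, limma adjusted p = 0.962).

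The kinases of this receptor family showed no such separation. Jak1, which binds the private chains, was at 257, 212 and 174 CPM in WT libraries 3, 82 and 94 and at 195, 205 and 205 CPM in the Dcir-/- libraries. All 3 Dcir-/- libraries lay within the WT range. Jak1 had a log2 fold change of -0.07 (SE 0.13, 95% interval -0.37 to 0.22) with a limma adjusted p of 0.878. Jak3, which binds the gamma chain, was at 26.1, 23.2 and 20.9 CPM in WT and at 21.0, 20.3 and 25.2 CPM in Dcir-/- OCs. Again the genotypes overlapped, with a log2 fold change of -0.07 (SE 0.12, 95% interval -0.35 to 0.20, limma adjusted p = 0.857). Jak3 shares 404 exon bases (7.55%) on the same strand with Insl3, so some of its reads cannot be assigned.

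Stat3, which carries the signals of IL-21, IL-6 and IL-10, had the smallest SE of the 9 genes. It was at 102, 93.1 and 87.9 CPM in the WT libraries and at 87.1, 90.4 and 88.3 CPM in the Dcir-/- libraries. Its log2 fold change was -0.09 (SE 0.08, 95% interval -0.27 to 0.09, limma adjusted p = 0.711). Stat6, the factor downstream of IL-4, was at 197, 167 and 141 CPM in WT and at 139, 160 and 164 CPM in Dcir-/- OCs. WT libraries 3 and 82 stood above all Dcir-/- libraries, library 82 only just, and WT library 94 was close to the lowest of them. Stat6 had a log2 fold change of -0.11 (SE 0.12, 95% interval -0.40 to 0.17, limma adjusted p = 0.777). These intervals leave room for modest differences in either direction in both STAT genes.

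Socs3, the inhibitor, was expressed at a low level. It was at 4.11, 3.54 and 3.07 CPM in WT libraries 3, 82 and 94 and at 1.71, 3.67 and 2.34 CPM in Dcir-/- libraries 21, 22 and 83. Dcir-/- library 22 lay within the WT range and the other Dcir-/- libraries below it. The log2 fold change of Socs3 was -0.39 (SE 0.21, 95% interval -0.85 to 0.08) with a limma adjusted p of 0.506.

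Levels of different genes were compared only per kb of merged exon. This length pools the exons of all annotated transcripts, so the order of genes depends on the annotation. In WT OCs the highest was Il2rg at 60.0 ± 7.41 CPM per kb, followed by Stat6 at 38.2 ± 6.30 and Jak1 at 29.7 ± 5.75 (SD, n = 3 each). Libraries of Stat6 and Jak1 overlapped, whereas those of Il2rg lay above both. Il4ra at 12.0 ± 1.15, Il21r at 11.05 ± 1.10, Stat3 at 9.92 ± 0.769, Il7r at 6.32 ± 5.11 and Jak3 at 4.37 ± 0.493 CPM per kb came next, each overlapping its neighbour in this order. Socs3 at 1.24 ± 0.179 and Il9r at 0.116 ± 0.102 CPM per kb were apart from the rest and from each other. In Dcir-/- OCs the order began with the same 3 genes, at 44.3 ± 5.10, 35.1 ± 3.05 and 27.9 ± 0.816 CPM per kb. Stat3 at 9.30 ± 0.177 then came before Il4ra at 8.66 ± 0.689 and Il21r at 6.09 ± 1.39 CPM per kb, with no overlap between Stat3 and Il4ra or between Il4ra and Il21r. The lowest Dcir-/- library of Stat3, at 9.14 CPM per kb, was only just above the highest of Il4ra, at 9.13. Jak3 at 4.14 ± 0.492 and Il7r at 4.11 ± 1.18 overlapped, and Socs3 at 0.891 ± 0.347 and Il9r at 0.126 ± 0.0815 CPM per kb were last.

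**Figure D2:**
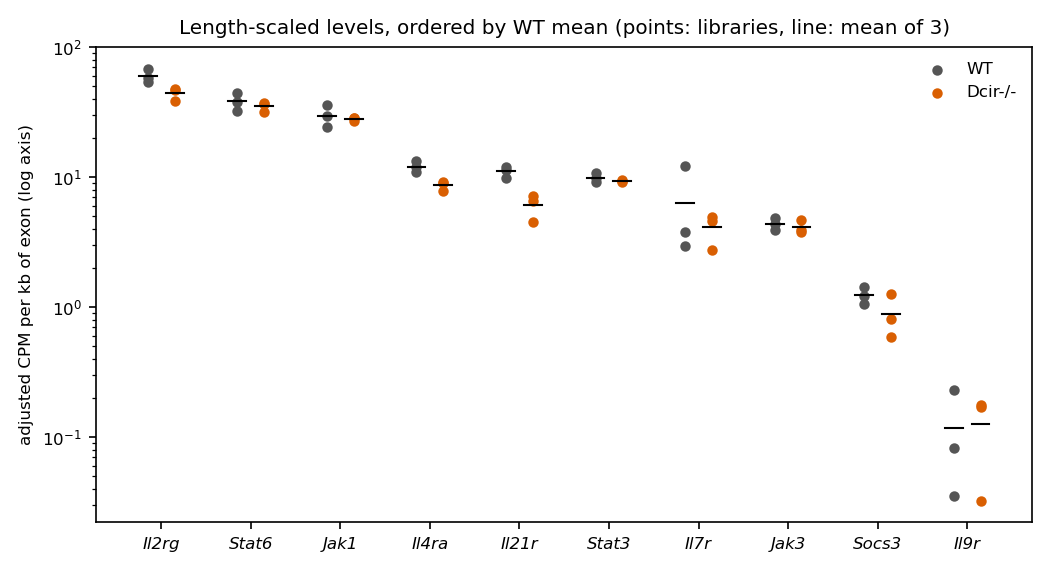
Adjusted CPM per kb of merged exon for the 10 genes on a log axis, ordered by the WT mean. Points are libraries of WT (grey) and Dcir-/- (orange) OCs, and lines are means of 3 libraries. Il2rg is highest in both genotypes, and Socs3 and Il9r are lowest. By mean, Stat3 ranks above Il4ra and Il21r in Dcir-/- OCs, only just above Il4ra, and below them in WT OCs, where libraries of Stat3 and Il21r overlap.

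Ratios within a library, also per kb, are given as a description without a test. The ratio of Il2rg to Il4ra was 4.99 ± 0.376 in WT and 5.10 ± 0.201 in Dcir-/- OCs (SD, n = 3 each), and the libraries overlapped between 4.56 and 5.27. The ratio of Il2rg to Il21r was 5.44 ± 0.561 in WT and 7.41 ± 0.971 in Dcir-/- OCs, and that of Il4ra to Il21r was 1.09 ± 0.0318 and 1.46 ± 0.251. For both of these ratios all Dcir-/- libraries were above all WT libraries. The ratio of Il2rg to Jak3, the kinase it carries, was 13.8 ± 1.15 in WT and 10.8 ± 1.45 in Dcir-/- OCs, with no overlap. The ratio of Jak1 to Jak3 was 6.75 ± 0.552 and 6.79 ± 0.740, and that of Stat6 to Stat3 was 3.84 ± 0.342 and 3.78 ± 0.288, both with overlapping libraries. Thus Il2rg and Il4ra stood in a like proportion in both genotypes, while Il21r was lower relative to both of them in every Dcir-/- library.

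The tested genes most like Il2rg over the 6 libraries were Gm20489, Pilrb1, Susd3, Rgs2 and Lpxn, by the root mean square difference of log2(CPM + 1) after the mean of each gene was taken off. This difference was 0.0297 for Gm20489, whose exons overlap those of Il2rg, and 0.0368 to 0.0499 for the other 4. The same difference was 0.0733 for Il4ra, at place 31 among the tested genes, and 0.245 for Il21r, at place 3072. Il7r was the least like Il2rg of the members, at 0.541. Il2rg and Il4ra thus had close profiles over the 6 libraries.

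The differences were not shared evenly by the libraries. WT library 3 was the highest of the 6 libraries in 9 of the 9 tested genes, compared with 24.8% of all tested genes, and Dcir-/- library 21 was the lowest in 7 of 9, compared with 17.2%. Without WT library 3 the median of the 9 genes moved from -0.36 to -0.03, 5 genes had a lower and 4 a higher mean in Dcir-/- OCs, and Il7r, Jak1, Jak3 and Stat6 changed direction, at 0.24, 0.070, 0.0050 and 0.0066. Without Dcir-/- library 21 the median was -0.11. By contrast Il2rg, Il4ra and Il21r were lower with an unadjusted p under 0.05 in limma whichever library was left out. In these 3 genes every Dcir-/- library was below every WT library, so leaving out 1 library could not turn their direction. Their constant direction is therefore no separate support for a difference. The log2 fold change without 1 library was -0.50 to -0.34 for Il2rg (limma adjusted p 0.129 to 0.708), -0.53 to -0.39 for Il4ra (0.0575 to 0.532) and -0.98 to -0.66 for Il21r (0.0621 to 0.281).

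**Figure D3:**
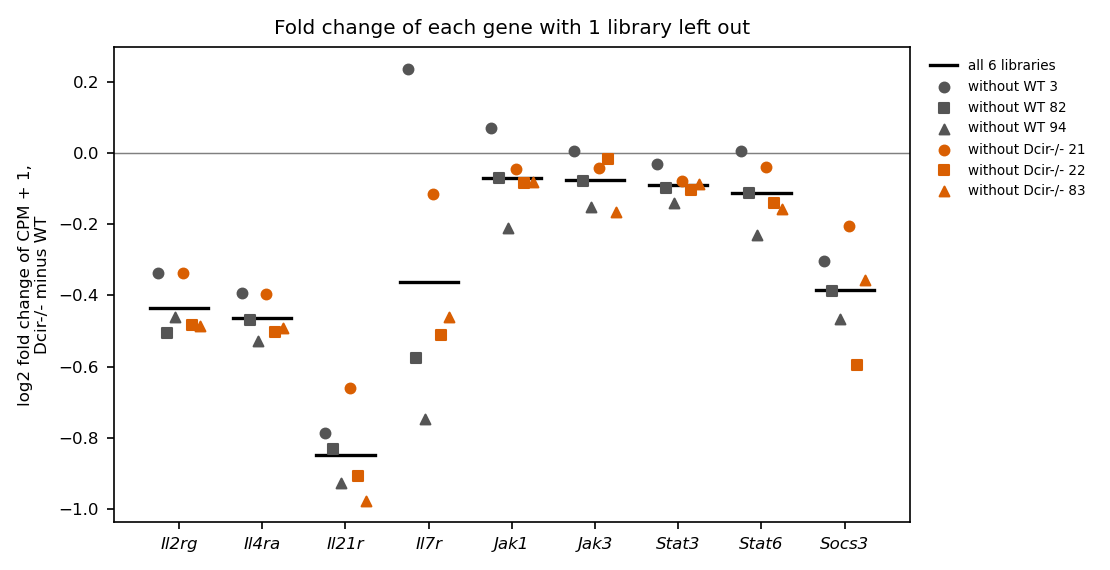
Log2 fold change of the 9 tested genes (Dcir-/- minus WT, of CPM + 1) with all 6 libraries (black line) and with each library left out in turn (symbols; grey for WT, orange for Dcir-/-). Il2rg, Il4ra and Il21r stay below 0 in every case, as they must where every Dcir-/- library is below every WT library. Il7r, Jak1, Jak3 and Stat6, in which the genotypes overlap, are above 0 without WT library 3.

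Most markers of macrophages were high and low in the same libraries. All 8 macrophage and monocyte markers had a lower mean in Dcir-/- OCs (median -0.75). Limma called 0 of 8, and 4 were lower at an unadjusted p under 0.05, against 6.68% of all tested genes. WT library 3 was the highest in 7 and Dcir-/- library 21 the lowest in 6 of 8. Csf1r and Cd68 were nearly level, at -0.0068 (SE 0.10, limma adjusted p = 0.989) and -0.014 (SE 0.08, limma adjusted p = 0.970). Cd68 was highest in Dcir-/- library 21. Ccr2 was at -0.14 (SE 0.20, limma adjusted p = 0.824). Adgre1, which encodes F4/80, was at 777, 416 and 282 CPM in WT libraries 3, 82 and 94 and at 217, 301 and 308 CPM in Dcir-/- libraries 21, 22 and 83. All 10 OC markers had a higher mean in Dcir-/- OCs (median 0.15). Limma called 0 of 10, and 4 were higher at an unadjusted p under 0.05, against 5.82% of all tested genes. The part of these markers in the lower levels of Il2rg, Il4ra and Il21r was not tested.

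**Figure D4:**
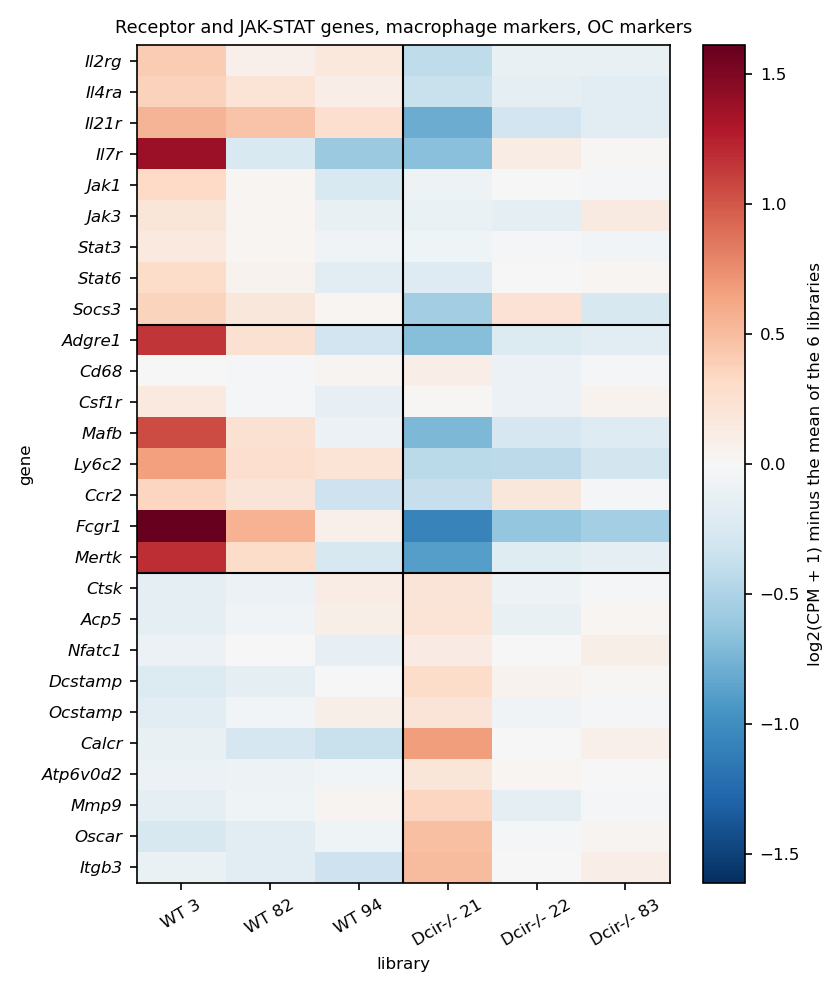
Log2(CPM + 1) of each gene in each library minus the gene's mean over the 6 libraries (red above, blue below), for the 9 tested genes, 8 macrophage and monocyte markers and 10 OC markers. WT library 3 is red for all 9 genes and for most macrophage markers, and Dcir-/- library 21 is blue for all 9 genes and for most macrophage markers and red for the OC markers.

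Lymphocytes also express these receptors, so their markers were read as well. The 5 B cell markers summed to 3.49 to 3.87 CPM in WT and 1.36 to 2.29 CPM in Dcir-/- OCs. The 3 T cell markers with a value summed to 8.37 to 8.54 CPM in WT and 7.31 to 7.34 CPM in Dcir-/- OCs, nearly all of it Trac, a gene of the T cell receptor, while Cd3d was at 0 to 0.118 CPM. The 4 markers of NK cells and ILCs with a value summed to 0.439 to 0.734 CPM in WT and 0.197 to 0.867 CPM in Dcir-/- OCs, and the 4 of mast cells and basophils to 3.31 to 4.26 and 3.31 to 3.61 CPM. The 6 dendritic cell markers summed to 50.3 to 96.1 and 38.05 to 51.3 CPM, mostly Irf8. The 6 neutrophil markers summed to 250.3 to 302 CPM in WT and 139 to 179 CPM in Dcir-/- OCs, mostly S100a8 and S100a9. Ly6g was at 0.498 to 0.842 CPM in WT and 0.109 to 0.312 CPM in Dcir-/- OCs and was not tested. Limma called 2 of the 5 tested lower, S100a8 and S100a9, compared with 0.292% of all tested genes. Their log2 fold changes were -0.94 and -0.78 (limma adjusted p = 0.0395 and 0.0440). Both calls were lost without Dcir-/- library 21, 22 or 83 or WT library 82 (limma adjusted p of 0.0661 to 0.199 for S100a8 and 0.0661 to 0.226 for S100a9), and that of S100a9 also without WT library 94 (0.0519). With all libraries kept, array quality weights ended both calls as well (limma adjusted p of 0.0591 and 0.0702), and a filter of 5 CPM ended that of S100a9 (0.0520). The part of the RNA of these B cell, T cell or neutrophil markers in the lower levels of Il2rg, Il4ra and Il21r was not tested.

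Around the 10 genes, 68 other genes of the pathway were listed by role, also with earlier results of these data known. Of these, 60 were in the table and 49 were tested. Limma called 1 of the 49 lower and 0 higher, compared with 0.292% and 0.149% of all tested genes. At an unadjusted p under 0.05, 10 were lower and 0 higher, compared with 6.68% and 5.82% of all tested genes. A lower mean was seen in 34, compared with 46.1% of all tested genes. The median log2 fold change was -0.10, compared with 0.01 over all tested genes. The genotypes did not overlap in 10 genes that were lower and 3 that were higher, where 9.34% and 10.5% of all tested genes did so.

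Of the ligands, Il15 was the only gene tested. It encodes a gamma-chain cytokine made by macrophages and was at 19.2, 13.2 and 13.2 CPM in WT and 11.02, 10.98 and 13.1 CPM in Dcir-/- OCs, with a log2 fold change of -0.33 (SE 0.16, limma adjusted p = 0.441). Il4 was at 0.703 to 1.02 CPM in WT and 0.413 to 0.729 CPM in Dcir-/- OCs, and Il7 did not exceed 0.477 CPM in any library. Il2, Il9, Il13 and Il21 were not analysed here.

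The 3 tested partner chains of the same receptors had higher means in Dcir-/- OCs, with 0 called by limma and 0 at an unadjusted p under 0.05. The IL-13 receptor chain Il13ra1, which pairs with IL-4Rα, was at 35.7, 34.2 and 30.5 CPM in WT and 40.7, 39.7 and 33.2 CPM in Dcir-/- OCs, with a log2 fold change of 0.17 (SE 0.11, limma adjusted p = 0.581). Crlf2, which pairs with IL-7Rα to bind TSLP, was at 0.07 (SE 0.09, limma adjusted p = 0.794), and Il15ra, which presents IL-15, at 0.12 (SE 0.15, limma adjusted p = 0.800). Il2ra and Il2rb, the other chains of the IL-2 receptor, were at or below 0.236 CPM in every library. The difference between Il2rg and these chains was not tested.

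The 6 tested receptor chains linked to STAT3 all had lower means, although Il6st was nearly level, at -0.0018 (SE 0.15, limma adjusted p = 0.998). Limma called 0 of them, and 2 were lower at an unadjusted p under 0.05, against 6.68% of all tested genes. Il6ra, the IL-6 receptor, was at -0.34 (SE 0.14, limma adjusted p = 0.352), and Il10rb, a chain of the IL-10 receptor, at -0.19 (SE 0.08, limma adjusted p = 0.374). Csf3r, the G-CSF receptor, was at 46.1 CPM in WT library 3 and between 11.6 and 24.2 CPM in the other 5 libraries. WT library 3 was the highest in all 6 of these genes, as in the 9 tested members, but in 0 of the 3 tested partner chains above.

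Among the other kinases, Jak2 was at -0.16 (SE 0.16, limma adjusted p = 0.745) and Tyk2 at 0.07 (SE 0.12, limma adjusted p = 0.864). Stat2, a factor of interferon signaling, was at -0.33 (SE 0.30, limma adjusted p = 0.712), again with WT library 3 far above the rest at 71.5 CPM. Stat5b, which carries IL-7 and IL-2 signals, was at -0.13 (SE 0.15, limma adjusted p = 0.792).

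Inhibitors were spread around 0. Of 7 SOCS genes, 3 had a higher and 4 a lower mean, from Socs6 at -0.41 (SE 0.13, limma adjusted p = 0.273) and Socs1 at -0.36 (SE 0.20, limma adjusted p = 0.517) to Socs7 at 0.12 (SE 0.09, limma adjusted p = 0.648). Of the 10 phosphatases, PIAS proteins and adaptors, 4 had a higher and 6 a lower mean, with a median of -0.00. Sh2b3, the adaptor LNK that restrains JAK2, was at 0.16 (SE 0.08, limma adjusted p = 0.483). Every Dcir-/- library was above every WT library in Sh2b3 and Socs7, as in 10.5% of all tested genes. In Socs6 every Dcir-/- library was below every WT library, as in 9.34% of all tested genes. Ptpn1, the phosphatase PTP1B, was at 0.13 (SE 0.10, limma adjusted p = 0.644) and Ptprc, or CD45, at -0.11 (SE 0.16, limma adjusted p = 0.834). In both lists limma called 0 genes, with 1 lower at an unadjusted p under 0.05, Socs6, where 6.68% of all tested genes were lower.

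Of 14 macrophage genes known to respond to IL-4 and STAT6, 7 were tested. Limma called 1 lower and 0 higher, compared with 0.292% and 0.149% of all tested genes. Unadjusted limma p-values under 0.05 were seen in 3, all lower, compared with 6.68% of all tested genes. In the same 3, Clec10a, Mrc1 and Chil3, every Dcir-/- library was below every WT library, as in 9.34% of all tested genes. Clec10a, a C-type lectin of macrophages and dendritic cells, was at 38.6, 31.4 and 24.7 CPM in WT libraries 3, 82 and 94 and at 6.40, 10.7 and 10.6 CPM in Dcir-/- libraries 21, 22 and 83. All WT libraries were well above all Dcir-/- libraries. Clec10a had a log2 fold change of -1.68 (SE 0.21) with a limma adjusted p of 0.0229. The call was lost without Dcir-/- library 21, 22 or 83 or WT library 82, at limma adjusted p-values of 0.0661, 0.0989, 0.112 and 0.122, and held without WT library 3 or 94.

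Mrc1, the mannose receptor, was at 314, 185 and 122 CPM in WT and at 59.6, 88.9 and 77.3 CPM in Dcir-/- OCs. The genotypes did not overlap, with a log2 fold change of -1.36 (SE 0.30, limma adjusted p = 0.130). Chil3, which encodes the chitinase-like protein Ym1, was at 168, 129 and 125 CPM in WT and at 96.9, 72.0 and 77.5 CPM in Dcir-/- OCs, a log2 fold change of -0.77 (SE 0.14, limma adjusted p = 0.0816). Mrc1 passed the threshold without WT library 3 (adjusted p = 0.0321 by limma) or WT library 94 (0.0270), and Chil3 without WT library 3 (0.0325). Egr2, Tgm2, Pparg and Ccl22 of the same list had overlapping genotypes, at 0.14, 0.04, -0.26 and -0.10, and Arg1 did not exceed 0.223 CPM in any library. Macrophages can express Clec10a, Mrc1 and Chil3 without IL-4 as well, and the part of the macrophage markers above, also with lower means in Dcir-/- OCs, was not tested.

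Of 9 genes known to respond to STAT3, 7 had a lower mean, compared with 46.1% of all tested genes, and limma called 0. At an unadjusted p under 0.05, where 6.68% of all tested genes were lower, 3 of the 9 were lower. These were Ccnd1, the cyclin D1 gene, at -0.46 (SE 0.11, limma adjusted p = 0.158), Bcl2l1, which encodes the survival protein BCL-XL, at -0.45 (SE 0.14, limma adjusted p = 0.251), and Junb, an AP-1 subunit, at -0.18 (SE 0.07, limma adjusted p = 0.377). In each of them every Dcir-/- library was below every WT library, as in 9.34% of all tested genes. Vegfa, the angiogenic growth factor, was apart in the other direction, as were 10.5% of all tested genes, at 57.7, 62.5 and 62.0 CPM in WT and 83.2, 63.1 and 65.7 CPM in Dcir-/- OCs (log2 fold change 0.21, SE 0.11, limma adjusted p = 0.511). Bcl2l1 was at 24.2, 16.2 and 18.7 CPM in WT and at 13.9 CPM in all 3 Dcir-/- libraries. WT library 3 was the highest in 2 of the 9 genes of this list.

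**Figure D5:**
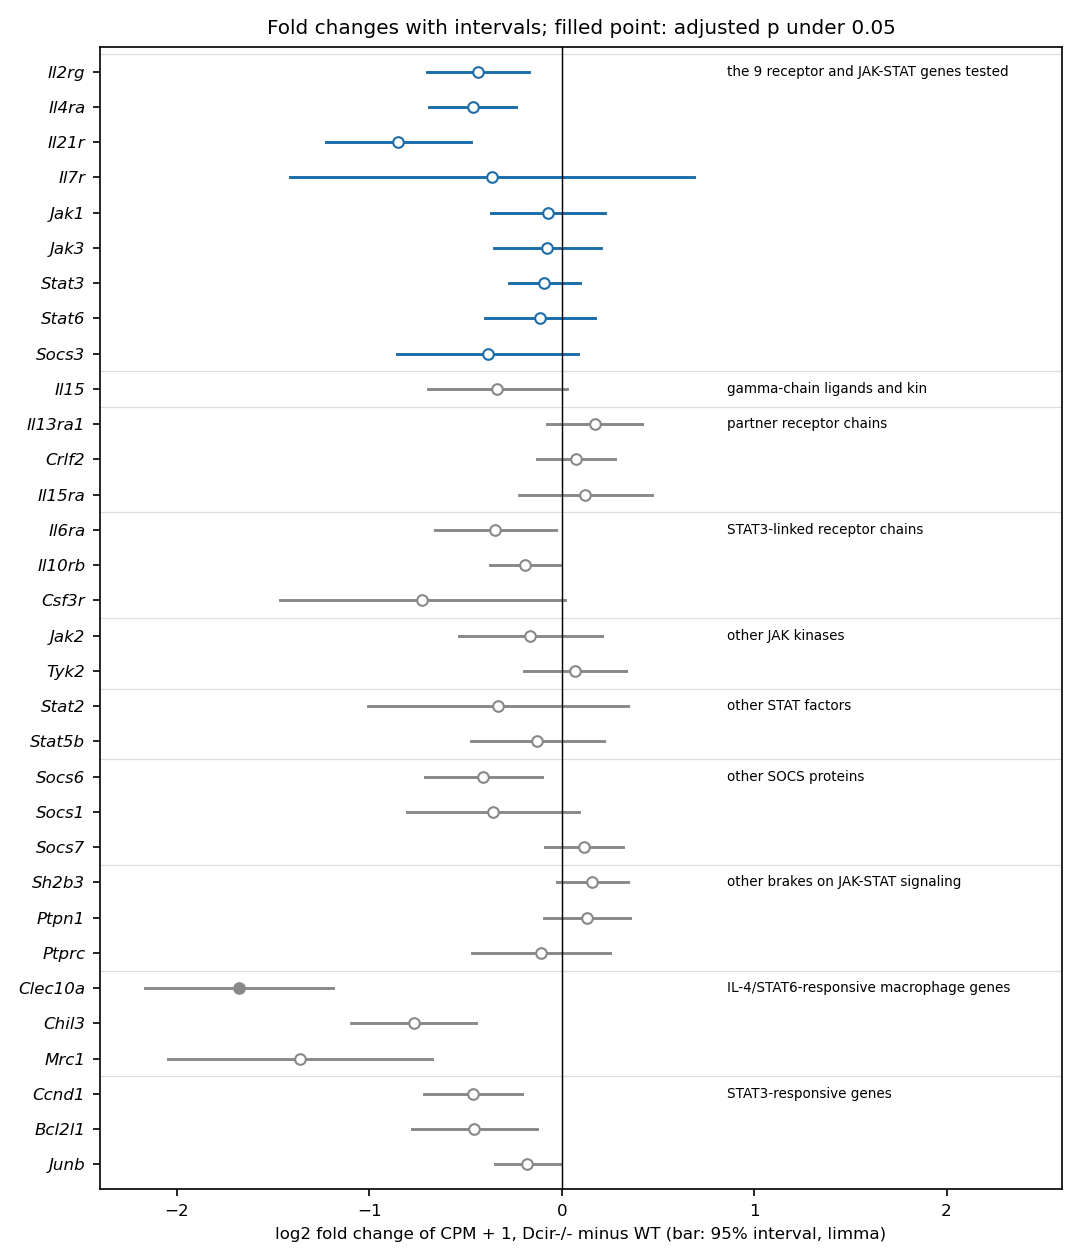
Log2 fold changes (Dcir-/- minus WT, of CPM + 1) with 95% intervals from limma for the 9 tested genes (blue) and for up to 3 of the genes with the smallest p in each list of pathway genes (grey). A filled point has an adjusted p under 0.05, which only Clec10a reached, at -1.68. The intervals of Il2rg, Il4ra and Il21r lie below 0, and those of the kinases and STAT members span 0.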

How the data were processed

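The 3 WT and 3 Dcir-/- RNA libraries of OCs were analysed, each placed in its group by its label. Per the labels and the study's methods, stranded libraries were trimmed with Trim Galore 0.6.6 and aligned to mm10 with HISAT2 2.2.0, and reads on exons were counted with Rsubread. The annotation release and strand setting of the counting were not given in the sources used here. The authors deposited 1 value per gene and library, a signal that is mostly not whole, which looks like counts adjusted to a common library size. The deposited table further holds a log2 fold change and an adjusted p-value (FDR) that the authors computed in their own comparison, which were not used. There were 0 other sample columns.

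Values were divided by the mean of the column totals (33577739.2, so that 1 CPM is 33.6 adjusted counts; with a library left out, the mean of those kept). Genes with at least 1 CPM in 3 libraries were fitted with limma 3.58.1 (trend, genotype only, pseudocount 1 CPM) in R 4.3.3, with p-values adjusted by Benjamini-Hochberg (threshold 0.05). The fit was tested on simulated data first. Alternatives were other filters, pseudocounts, scalings and limma fits, and each library left out in turn. Gene models were those of GENCODE M21 on GRCm38, to which 14025 of 14047 tested identifiers matched without their version. The members and lists were chosen with earlier results of these data known. Named genes were all members, the 3 genes of each pathway list with the smallest p (apart from 1 that is not reported here), any gene below the filter whose level is described, and the 5 genes most like Il2rg. Other genes of the pathway lists, the markers and the neighbours of Il4ra and Il21r were named after their values were seen.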

Additional observations from a re-analysis of the deposited data

How the results depend on the processing

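The count of genes called over the whole table was 62, with 33 under a filter of 5 CPM, 39 with array quality weights (where the weight estimate stopped before it converged) and 2 to 126 with 1 library left out, the highest without WT library 3. Of the 9 tested members 0 were called under any alternative, which ranged from 0 to 0 with 1 library left out. Of the other pathway genes 1 was called, and 0 to 3 with 1 library left out. Of 125 alternative fold changes of the members 121 kept their direction and 4 were reversed, all without WT library 3. Ranges with 1 library left out were -0.75 to 0.24 for Il7r, -0.21 to 0.070 for Jak1, -0.17 to 0.0050 for Jak3 and -0.23 to 0.0066 for Stat6. Of the pathway genes, only the 3 or fewer with the smallest p in each list were followed in this way. Others may have turned as well. Ranges of those that turned were -0.00047 to 0.11 for Crlf2, -2.7e-05 to 0.24 for Il15ra and -0.29 to 0.013 for Jak2. Further ranges were -0.055 to 0.14 for Tyk2, -0.64 to 0.054 for Stat2, -0.30 to 0.011 for Stat5b and -0.26 to 0.081 for Ptprc. Crlf2 turned without Dcir-/- library 21, Il15ra without Dcir-/- library 83, Tyk2 without WT library 94 and the other 4 without WT library 3. The cause was not tested. No paired analysis was possible because the groups share no replicate numbers. The depth of a library cannot be read from these values, so precision rests on the spread between 3 libraries per group. By SE, Il7r was the least certain member, at 0.46, against 0.21 for Socs3 and, with no filter, 0.24 for Il9r. Socs3 and Il9r, the lowest genes, are uncertain as well.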
